A study of Homo sapiens with 3 samples.

Results

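The guides described here were 995 guide RNAs aimed at 262 microRNA genes, out of 62916 guides in a pooled knockout library. They were all guides whose target name began with hsa-let-7, or with hsa-mir- and a number under 400, and that were present in the 3 deposited tables. The number is a registry order, so these are the microRNAs named earliest, many of them conserved between vertebrates. The rule uses the names alone. Of the 262 genes, 232 had 4 guides, 17 had 3, 3 had 2 and 10 had 1. The same library held 5443 guides against 1462 microRNAs with higher numbers, 1000 non-targeting guides and 55478 guides against other genes.

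The cells were NUGC3, an established human gastric cancer line carrying the GeCKO library, in which every cell receives a guide that directs the nuclease Cas9 to a chosen place in the genome. The 3 conditions were cells taken at day 14 of culture in 10 nM RTX, cells taken at day 14 with the vehicle DMSO alone, and cells at day 0. The abbreviation RTX is not spelled out in the labels, and the series title concerns sensitivity to antifolate drugs together with MYC, cohesin and Mediator. The groups follow the sample titles, since a treatment note gives the day 0 cells 14 days of DMSO, and each condition was 1 library without a replicate.

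A microRNA is typically cut from a hairpin in a longer transcript, first by DROSHA with DGCR8 in the nucleus and then by DICER1 in the cytoplasm. The short mature strand guides an Argonaute protein to messenger RNAs that pair with its seed, the bases near its 5′ end, and these messages are translated less or degraded. In gastric and other epithelial cancers, let-7 and mir-34 are known as growth-restraining families, the mir-17 clusters and mir-21 as growth-promoting ones, and mir-200 with mir-205 as keepers of the epithelial state through the repressors ZEB1 and ZEB2.

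The mature strands of the microRNAs on which the results turn are printed 5′ to 3′ from RefSeq (GRCh38.p14), with the seed (bases 2 to 8) in capitals. RefSeq held a mature strand for 247 of the 262 members. The first set shows that let-7c carries the seed common to let-7 and mir-98, and that mir-200a and mir-141 share their seed while mir-200b and mir-200c share another.
hsa-let-7a-5p: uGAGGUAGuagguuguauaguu
hsa-let-7c-5p: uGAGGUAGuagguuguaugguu
hsa-miR-98-5p: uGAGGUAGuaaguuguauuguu
hsa-miR-200a-3p: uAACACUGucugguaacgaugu
hsa-miR-141-3p: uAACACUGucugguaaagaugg
hsa-miR-200b-3p: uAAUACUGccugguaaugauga
hsa-miR-200c-3p: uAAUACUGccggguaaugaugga

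The second set gives the seeds found within the mir-17 clusters, where miR-17 and miR-106b share one, and miR-92a and miR-25 share another.
hsa-miR-17-5p: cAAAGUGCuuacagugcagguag
hsa-miR-106b-5p: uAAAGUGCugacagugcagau
hsa-miR-92a-3p: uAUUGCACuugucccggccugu
hsa-miR-25-3p: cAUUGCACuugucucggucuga
hsa-miR-19a-3p: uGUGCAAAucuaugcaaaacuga

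The third set holds other microRNAs described singly below, and the near-identical copies of mir-320.
hsa-miR-205-5p: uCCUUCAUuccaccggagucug
hsa-miR-21-5p: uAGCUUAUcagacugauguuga
hsa-miR-99a-5p: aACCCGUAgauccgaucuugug
hsa-miR-125b-5p: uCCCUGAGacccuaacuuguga
hsa-miR-155-5p: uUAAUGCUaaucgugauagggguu
hsa-miR-143-3p: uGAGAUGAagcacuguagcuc
hsa-miR-133b: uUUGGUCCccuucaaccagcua
hsa-miR-320b: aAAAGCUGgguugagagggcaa
hsa-miR-320c: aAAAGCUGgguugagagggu
hsa-miR-320d: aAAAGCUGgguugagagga
hsa-miR-320e: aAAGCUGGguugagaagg

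The RTX library held 17344507 reads, the DMSO library 18805737 and the day 0 library 16547572. The microRNA guides took 1.49% of the reads in RTX, 1.52% in DMSO and 1.5% at day 0. A guide in this group had a median of 219 reads in RTX, 247 in DMSO and 221 at day 0. Guides with 0 reads numbered 5 in RTX, 5 in DMSO and 1 at day 0. The size of a difference is given as a log2 ratio of the authors' normalized values with 5 added to each, so that a change at low read counts comes out too small. Ratios used 989 of the 995 guides, those with at least 10 normalized reads at day 0. The 6 others were 1 guide each of mir-130b, mir-203a, mir-302a, mir-320b-1, mir-376c and mir-92b, with 0 to 9 reads in every library. Gene values were computed for the 252 genes with at least 2 guides past this filter. Ratios keep the authors' scale, on which the non-targeting guides had medians of -0.10 in RTX over DMSO, 0.19 in DMSO over day 0 and 0.11 in RTX over day 0, so that any median between 0 and these values turns its sign when the non-targeting guides are set to 0. Intervals are exact 95% intervals for counting error only, and PCR reads are not independent molecules. With 1 library per condition no difference between conditions could be tested against replicates. The 3 comparisons share libraries, and guides to the same hairpin share their target, so neither the comparisons nor the guides of a gene are independent of each other.

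As a group, the guides against low-numbered microRNAs lay near their DMSO level in RTX. Over the 989 guides the median log2 ratio of RTX over DMSO was -0.03 with an SD of 0.70, against an SD of 0.64 over 991 non-targeting guides. A log2 ratio of 1 or more was seen for 72 guides (7.28%), where the share over all guides was 7.89%. A log2 ratio of -1 or less was seen for 62 guides (6.27%), where the share over all guides was 5.43%. Both shares lay near the background of the whole library.

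The 14 days in DMSO also left most of these guides near their starting level. The median log2 ratio of DMSO over day 0 was 0.02 with an SD of 0.59, against an SD of 0.53 for the non-targeting guides. At 1 or more were 25 guides (2.53%), beside 2.32% of all guides. At -1 or less were 52 guides (5.26%), beside 7.52% of all guides, 2.02% of the non-targeting guides and 9.13% of the guides against higher-numbered microRNAs. By share, then, guides lost during growth were fewer among low-numbered than among higher-numbered microRNAs and more than among the non-targeting guides. In RTX over day 0, 37 guides (3.74%) were at 1 or more beside 3.18% of all guides, and 42 (4.25%) were at -1 or less beside 5.32%.

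The same order appeared at the level of genes with 4 guides, where a gene's value is the median over its guides. In DMSO over day 0, 0 of 228 low-numbered microRNAs had a median of -1 or less, against 31 of 1200 higher-numbered ones (2.58%). The lowest low-numbered microRNA was at -0.98 and the lowest higher-numbered one at -2.07. Including genes with 2 or 3 guides, 0 of 252 low-numbered microRNAs reached -1 where the share over all 20150 genes was 3.42%, and 0 reached 1 where the share was 0.109%. No test of this difference was made, because guides and genes are not replicates of a condition.

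Guides aimed at the same hairpin seldom moved together. Over 1432 pairs of guides to the same gene in 252 genes, which share both libraries, Pearson's r was 0.03 in RTX over DMSO, 0.0035 in DMSO over day 0 and 0.07 in RTX over day 0, given as a description. The SD within a gene was 0.70 in RTX over DMSO, the same as the SD over all these guides. Of the 228 genes with 4 guides, 33 (14.5%) had all guides of 1 sign in RTX over DMSO, 27 (11.8%) in DMSO over day 0 and 33 (14.5%) in RTX over day 0. Over all 1429 genes of the library with 4 guides, 1200 of them higher-numbered microRNAs, the shares were 13.5% in RTX over DMSO, 13.4% in DMSO over day 0 and 16% in RTX over day 0. At least 2 guides at 1 or more were found in 10 of the 228 in RTX over DMSO (4.39%, beside 3.71% of all with 4 guides), and at least 2 at -1 or less in 6 (2.63%, beside 1.96%). In DMSO over day 0, 5 of the 228 (2.19%) had at least 2 guides at -1 or less, beside 5.18% of all with 4 guides. In RTX over day 0, 4 of the 228 (1.75%) did, beside 2.59%, and 3 (1.32%) had at least 2 at 1 or more, beside 0.63%. None of the 228 had 3 or more guides past a log2 ratio of 1 in the same direction in any of the 3 comparisons. Over all genes with 4 guides, 0.35% had 3 or more guides at 1 or more in RTX over DMSO and 0% had 3 or more at -1 or less. The shares in DMSO over day 0 were 0% at 1 or more and 1.26% at -1 or less, and in RTX over day 0 they were 0.07% and 0.21%.

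Many of the largest single-guide ratios rested on few reads. Among the 72 guides at 1 or more in RTX over DMSO, 26 had under 50 reads in the library where they were lower, and among the 62 at -1 or less, 29 had. The highest was a guide to mir-301a, a relative of mir-130 encoded within SKA2. It had 87 reads in RTX, 0 in DMSO and 58 at day 0. Against a floor of 3 reads it was at least 32.0-fold higher in RTX than in DMSO, and at least 21.6-fold lower in DMSO than at day 0. The other mir-301a guides had 123 reads in RTX, 146 in DMSO and 102 at day 0, and 53 in RTX, 36 in DMSO and 23 at day 0, so the library that stood apart for the first guide was DMSO. The lowest was a guide to mir-30d with 3 reads in RTX, 51 in DMSO and 76 at day 0, a log2 ratio of -2.72 in RTX over DMSO.

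In RTX over DMSO, 3 of the 252 genes had a median of 1 or more (1.19%), where the share over all genes was 2.75%. They were mir-186 at 1.25, mir-125b-2 at 1.09 and mir-205 at 1.08. None had a median of -1 or less, where the share over all genes was 0.844%. Of these 3, mir-205 alone had all 4 guides above 0. Of the 19523 library genes with 3 or more guides, 1429 had 4, so the shares over all genes rest mostly on genes with fewer guides. Among genes with 4 guides, 3 of 228 members (1.32%) and 11 of 1200 higher-numbered microRNAs (0.917%) were at 1 or more in RTX over DMSO. At -1 or less were 0 members and 3 higher-numbered microRNAs (0.25%).

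mir-205, the partner of mir-200 in holding back ZEB1 and ZEB2, had the highest median among members with all guides above 0 in RTX over DMSO. The first guide had 1054 reads in RTX, 459 in DMSO and 342 at day 0. The second had 259 reads in RTX, 158 in DMSO and 69 at day 0. The third had 1074 reads in RTX, 780 in DMSO and 601 at day 0. For these guides the RTX count was the highest of the 3 libraries and the day 0 count the lowest. The last guide had 577 reads in RTX, 155 in DMSO and 311 at day 0, and so also had its highest count in RTX. The log2 ratios of RTX over DMSO were 1.33, 0.83, 0.60 and 2.0, and those of RTX over day 0 were 1.60, 1.83, 0.82 and 0.87. The counting intervals of all these ratios lay above 0, the lowest running from 0.47 to 0.74 in RTX over DMSO and from 0.68 to 0.98 in RTX over day 0. The gene's median in RTX over day 0 was 1.24, which was the only one of the 252 at 1 or more (0.397%), where the share over all genes was 0.62%. Among genes with 4 guides, 1 of 228 members (0.439%) and 1 of 1200 higher-numbered microRNAs (0.0833%) were at 1 or more in RTX over day 0. The highest of those 1200 was at 1.16. In RTX over DMSO, 11 of the 1200 (0.917%) were at 1 or more, and the highest was at 1.86, above mir-205 at 1.08. The 20 genes nearest to mir-205 on chromosome 1, 10 on each side in RefSeq, had a median of 0.09 for RTX over DMSO and 0.14 in RTX over day 0. Under the exact test described below none of the 4 guides was called in either comparison. On simulated data that test recovered 24% of rises by a log2 ratio of 2 in RTX over DMSO and 38% in RTX over day 0. Apart from 2.0 in RTX over DMSO, the mir-205 ratios were smaller than this, and smaller changes were not simulated. How often the test would call changes such as these is therefore not known, and nothing is drawn from the missing calls.

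The mir-205 hairpin, from chromosome 1 in RefSeq (GRCh38.p14), is printed with its mature arms in capitals, because this member was at 1 or more in both RTX over DMSO and RTX over day 0.
hsa-mir-205 hairpin: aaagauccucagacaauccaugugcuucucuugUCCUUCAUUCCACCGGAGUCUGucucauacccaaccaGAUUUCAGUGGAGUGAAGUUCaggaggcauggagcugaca

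mir-186, which lies within ZRANB2 on chromosome 1, had another make-up, with its median set by guides of few reads. Its guides had 225 reads in RTX, 416 in DMSO and 305 at day 0; 89 in RTX, 10 in DMSO and 14 at day 0; 44 in RTX, 5 in DMSO and 29 at day 0; and 186 in RTX, 190 in DMSO and 157 at day 0. The ratios of RTX over DMSO were -0.73, 2.76, 2.39 and 0.11, so the well-counted guides were lower or level and the thin ones higher. With guides under 50 normalized reads at day 0 left out, the median of the remaining 2 was -0.31.

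Among genes whose guides all lay above 0 in RTX over DMSO, the next after mir-205 were mir-99a at 0.86, mir-28 at 0.84, mir-155 at 0.70, let-7d at 0.53 and mir-187 at 0.51. mir-28, encoded in the LPP gene, had guide ratios from 0.15 to 1.15. Its counts were 398 in RTX, 394 in DMSO and 314 at day 0 for the guide that differed least, and 62 in RTX, 28 in DMSO and 26 at day 0 for the guide that differed most.

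Among genes whose guides all lay below 0 in RTX over DMSO, mir-133b, a microRNA of skeletal and heart muscle, was lowest at -0.94. Of its guides, 1 had 101 reads in RTX, 244 in DMSO and 190 at day 0, another had 437 in RTX, 545 in DMSO and 420 at day 0, and the thinnest had 28 in RTX, 74 in DMSO and 75 at day 0. All 4 were lower in RTX than in DMSO, by log2 ratios from -1.13 to -0.18, but against day 0 they ran from -1.28 to 0.05. mir-208a, encoded in the heart myosin gene MYH6, followed at -0.78, with 81 reads in RTX, 225 in DMSO and 95 at day 0 for its first guide. The gene's median for RTX over day 0 was -0.03, while that of DMSO over day 0 was 0.74, so the DMSO count was the one that stood apart. The next were mir-137 at -0.67, mir-337 at -0.66, mir-30d at -0.63, mir-202 at -0.59 and mir-146a at -0.58.

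In DMSO over day 0 the lowest genes with guides of 1 sign were mir-143 at -0.92, mir-29b-1 at -0.83 and mir-27b at -0.71. mir-143, known as a smooth-muscle microRNA that is low in many carcinomas, had guides with 196 reads in DMSO and 400 at day 0, 424 in DMSO and 441 at day 0, 166 in DMSO and 240 at day 0, and 31 in DMSO and 102 at day 0. All 4 guides were below their day 0 level in RTX as well, with a gene median of -0.48 in RTX over day 0. Its transcript partner mir-145 stood at -0.03 in DMSO over day 0 and 0.12 in RTX over day 0. For mir-27b, a cluster mate of mir-23b, the guide that differed most had 120 reads in RTX, 25 in DMSO and 98 at day 0, and the gene median in RTX over day 0 was near 0. The highest with guides of 1 sign were mir-378d-1 at 0.89, mir-208a at 0.74, mir-185 at 0.71 and mir-15a at 0.65.

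Guides low in both day 14 libraries were counted too, although both ratios use the same day 0 counts. There were 8 member guides at -1 or less in RTX over day 0 and in DMSO over day 0 (0.809%), beside 1.88% of all guides. They were 1 each of mir-151b, mir-18b, mir-191, mir-26a-2, mir-302b, mir-320e, mir-342 and mir-378b. No member guide was at 1 or more in both comparisons, beside 0.396% of all guides. The mir-191 guide had 0 reads in RTX, 0 in DMSO and 42 at day 0. Against the floor of 3 reads it was at least 14.1-fold lower in RTX and at least 15.6-fold lower in DMSO than at day 0. Of the other mir-191 guides, 1 had 32 reads in RTX, 90 in DMSO and 71 at day 0, a log2 ratio of -1.05 in RTX over day 0 and 0.17 in DMSO over day 0. The remaining guides had 359 reads in RTX, 334 in DMSO and 269 at day 0, and 262 in RTX, 410 in DMSO and 314 at day 0. In mir-302b, a member of the cluster of early embryonic cells in LARP7, 1 guide had 2 reads in RTX, 2 in DMSO and 42 at day 0, and another had 9 in RTX, 43 in DMSO and 43 at day 0. Its remaining guides had 407 reads in RTX, 315 in DMSO and 311 at day 0, and 317 in RTX, 439 in DMSO and 401 at day 0. mir-302b was the only gene at -1 or less in RTX over day 0 (median -1.06, 0.397% of the 252 beside 1.39% of all genes), and the median of its 2 well-counted guides was 0.02. Among genes with 4 guides, 1 of 228 members (0.439%) and 10 of 1200 higher-numbered microRNAs (0.833%) were at -1 or less in RTX over day 0.

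The let-7 family, with mir-98, had 12 genes and 48 guides. Its median over guides was 0.22 in RTX over DMSO, near 0 in DMSO over day 0 and 0.18 in RTX over day 0. In RTX over DMSO, 8 of the 12 gene medians lay above 0, running from -0.55 for mir-98 to 0.85 for let-7c. let-7c lies on chromosome 21, and without it the family's medians were 0.21 in RTX over DMSO and 0.15 in RTX over day 0. The other gene medians in RTX over DMSO were 0.53 for let-7d, 0.41 for let-7i, 0.31 for let-7b, 0.28 for let-7a-2, 0.21 for let-7f-2, 0.19 for let-7a-3, 0.03 for let-7e, -0.05 for let-7a-1, -0.10 for let-7g and -0.30 for let-7f-1. All 12 genes encode the seed GAGGUAG printed above, and yet the median of let-7f-1 was -0.30 and that of let-7f-2, with the same mature 5′ strand, 0.21. The family SD over guides was 0.63, close to that of the non-targeting guides. In RTX over DMSO, 4 guides (8.33%) were at 1 or more, beside 7.89% of all guides, and 1 was at -1 or less. Without let-7c, 2 of 44 guides (4.55%) were at 1 or more.

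The mir-17 clusters, 3 related groups of hairpins of which MYC is known to activate the one on chromosome 13, had 15 genes and 55 guides. Their median was -0.06 in RTX over DMSO, -0.01 in DMSO over day 0 and -0.01 in RTX over day 0, and the first of these became 0.04 when the non-targeting guides were set to 0. The cluster on chromosome 13 (mir-17, mir-18a, mir-19a, mir-20a, mir-19b-1 and mir-92a-1) had a median of -0.07 for RTX over DMSO, 0.07 in DMSO over day 0 and -0.22 in RTX over day 0. The cluster on chromosome X (mir-106a, mir-18b, mir-20b, mir-19b-2, mir-92a-2 and mir-363) had -0.13 in RTX over DMSO and 0.06 in both comparisons with day 0. The cluster in MCM7 on chromosome 7 (mir-106b, mir-93 and mir-25) had -0.0037 in RTX over DMSO, -0.12 in DMSO over day 0 and -0.08 in RTX over day 0. The lowest gene in RTX over DMSO was mir-19a at -0.80, with guides of 30 reads in RTX, 102 in DMSO and 72 at day 0, and of 200 in RTX, 387 in DMSO and 291 at day 0, and the remaining guide at a log2 ratio of 0.12. mir-19 is known as the main tumour-promoting part of the cluster in mouse B-cell lymphoma. The highest was mir-20b at 0.53. A single guide of mir-92a-1, with 33 reads in DMSO and 82 at day 0, had a log2 ratio of 2.53 in RTX over DMSO, while its 3 other guides ran from -0.81 to 0.47.

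Grouped by seed, the mir-17 clusters showed no shift common to the seeds described here. The 6 genes with the seed AAAGUGC had a median of 0.02 over 21 guides in RTX over DMSO and 0.08 in DMSO over day 0. The 7 genes with AUUGCAC, which include mir-32, mir-367 and mir-92b from elsewhere, had -0.03 over 25 guides in RTX over DMSO and 0.02 in DMSO over day 0. The 3 genes with GUGCAAA, mir-19a, mir-19b-1 and mir-19b-2, had -0.09 in RTX over DMSO, -0.21 in DMSO over day 0 and -0.42 in RTX over day 0, over 10 guides. In RTX over day 0 all 3 of these gene medians lay below 0, and 2 of the 10 guides lay above 0. In RTX over DMSO 1 of the gene medians lay above 0 and 2 below.

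mir-21, abundant in most carcinomas and known to restrain PDCD4, had a median of 0.40 for RTX over DMSO, 0.12 in DMSO over day 0 and 0.64 in RTX over day 0. The DMSO over day 0 value became -0.07 when the non-targeting guides were set to 0. Its guides had 285 reads in RTX, 401 in DMSO and 342 at day 0; 706 in RTX, 189 in DMSO and 287 at day 0; 284 in RTX, 305 in DMSO and 241 at day 0; and 447 in RTX, 288 in DMSO and 211 at day 0. The RTX count was the highest of the 3 libraries for the guides with 706 and 447 reads and not for the others. VMP1, the protein-coding gene that contains mir-21 and acts in autophagy, stood at 1.27 in RTX over DMSO and -1.92 in DMSO over day 0 over its 3 guides. These guides ran from -0.69 to 2.01 in RTX over DMSO. In RTX over day 0 the VMP1 median was -1.01, with guides from -1.16 to -0.64.

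The mir-200 family had 4 genes and 16 guides, and its median was 0.06 in RTX over DMSO, -0.07 in DMSO over day 0 and 0.09 in RTX over day 0, the last of which became -0.02 when the non-targeting guides were set to 0. Each of its genes had 1 guide at 1 or more in RTX over DMSO (4 of 16, 25%, beside 7.89% of all guides). The mir-200c guide was at 1.32. The others had 636 reads in RTX, 315 in DMSO and 291 at day 0 for mir-200a; 131 in RTX, 56 in DMSO and 74 at day 0 for mir-200b; and 370 in RTX, 173 in DMSO and 248 at day 0 for mir-141. With the rest of the guides the gene medians were 0.05 for mir-200a, -0.05 for mir-200b and -0.06 for mir-200c. mir-141, which has the seed of mir-200a and lies beside mir-200c on chromosome 12, was at 0.59 in RTX over DMSO and 0.62 in RTX over day 0. It was the only gene of the family above 0.50 in either comparison. In RTX over DMSO, 1 of the 16 mir-200 guides (6.25%) was at -1 or less, beside 5.43% of all guides. High shares at 1 or more were not particular to mir-200. They were 25% for mir-143 with mir-145 (2 of 8 guides) and 19.4% for mir-320 (6 of 31), but 0% for mir-15/16 (20 guides).

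mir-34a, mir-34b and mir-34c, transcriptional targets of p53, had 12 guides with medians of 0.17 in RTX over DMSO, 0.31 in DMSO over day 0 and 0.17 in RTX over day 0. The guide of mir-34a that differed most from day 0 had 350 reads in RTX, 214 in DMSO and 132 at day 0, and its other guides lay between -0.0042 and 0.27 in RTX over day 0. mir-192, mir-194-1, mir-194-2 and mir-215, microRNAs of the gastrointestinal epithelium, had 16 guides with a median of -0.01 in RTX over DMSO, 0.02 in DMSO over day 0 and 0.09 in RTX over day 0, and all 3 signs turned when the non-targeting guides were set to 0. The families known to be held down by MYC (let-7, mir-15/16, mir-26, mir-29, mir-30 and mir-34, a grouping made after the values were seen) had 33 genes and 132 guides, with medians of 0.04 in RTX over DMSO, -0.03 in DMSO over day 0 and 0.05 in RTX over day 0.

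Within that grouping mir-30 stood lowest. Its 6 genes and 24 guides had a median of -0.34 for RTX over DMSO, -0.14 in DMSO over day 0 and -0.42 in RTX over day 0, and all 6 gene medians were below 0 in the last, from -0.60 for mir-30e to just under 0 for mir-30a. The guides of mir-30a had 179 reads in RTX, 280 in DMSO and 185 at day 0; 311 in RTX, 276 in DMSO and 284 at day 0; 412 in RTX, 582 in DMSO and 575 at day 0; and 302 in RTX, 526 in DMSO and 291 at day 0. In RTX over day 0, 3 of the 24 guides (12.5%) were at -1 or less, beside 5.32% of all guides, and 1 was at 1 or more.

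The mir-320 family held 9 of the 52 guides at -1 or less in DMSO over day 0, among 31 guides of 8 genes (29.0%, beside 7.52% of all guides). Its median was -0.26 in DMSO over day 0, and it became 0.09 when guides under 50 normalized reads at day 0 were left out. In mir-320e, the lowest of all 252 genes in DMSO over day 0 at -0.98, 1 guide had 13 reads in RTX, 4 in DMSO and 36 at day 0, and another had 44 in RTX, 16 in DMSO and 87 at day 0. Its other guides had 165 in RTX, 212 in DMSO and 153 at day 0, and 30 in RTX, 91 in DMSO and 60 at day 0. In mir-320c-1 a single guide had 61 reads in RTX, 27 in DMSO and 113 at day 0. The copies of mir-320 have nearly the same mature strand, as printed above. Whether a guide also matched other copies was not tested, because guide sequences were not used here.

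The 4 members on chromosome 21, let-7c, mir-99a, mir-125b-2 and mir-155, were high in RTX together. Over their 16 guides the median was 0.78 in RTX over DMSO, -0.08 in DMSO over day 0 and 0.63 in RTX over day 0. In RTX over DMSO 14 of the 16 guides were above 0, and 15 were in RTX over day 0. The 211 other genes of chromosome 21 with guides had a median of 0.73 for RTX over DMSO, 0.03 in DMSO over day 0 and 0.71 in RTX over day 0. The 4 microRNAs therefore lay at about the level of their chromosome, and a microRNA's own part in these values cannot be told apart from that of its chromosome. mir-99a, which lies in a row with let-7c, had guides with 530 reads in RTX, 220 in DMSO and 220 at day 0; 370 in RTX, 328 in DMSO and 320 at day 0, and 521 in RTX, 309 in DMSO and 263 at day 0, and its remaining guide was at 0.85 in RTX over DMSO and 0.45 in RTX over day 0. mir-155, a microRNA of activated lymphocytes, had a guide with 407 reads in RTX, 278 in DMSO and 308 at day 0 and another with 217 in RTX, 115 in DMSO and 119 at day 0, and its other guides were at 0.71 and 0.11 in RTX over DMSO. let-7c had a guide at 1.5 in RTX over DMSO and guides with 733 in RTX, 640 in DMSO and 496 at day 0; 364 in RTX, 428 in DMSO and 233 at day 0; and 563 in RTX, 236 in DMSO and 244 at day 0. All of the let-7c, mir-99a and mir-155 guides had more reads in RTX than at day 0. In mir-125b-2 the first guide had 200 reads in RTX, 36 in DMSO and 134 at day 0, and the gene's 3 other guides ran from -0.35 to 1.56 in RTX over DMSO. Its copy mir-125b-1 on chromosome 11, which encodes the same mature 5′ strand, was at -0.46 in RTX over DMSO and -0.57 in RTX over day 0, against 1.09 and 0.59 for mir-125b-2. Other relatives outside chromosome 21 were higher, with mir-125a at 0.62 and mir-10a at 0.68 in RTX over DMSO, and at -0.18 and 0.24 in RTX over day 0. Of the 6 family genes outside chromosome 21, 4 had medians above 0 in RTX over DMSO and 2 below. Without the chromosome 21 members, the family of mir-10, mir-99, mir-100 and mir-125 had a median of -0.05 for RTX over DMSO, against 0.09 with them, and of -0.06 in RTX over day 0, against 0.20 with them.

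Copies of the same mature RNA offered a further comparison within the members. There were 35 mature RNAs encoded by 2 or more of these genes, 61 genes in all. The medians of the copies lay on both sides of 0 for 20 of the 35 in RTX over DMSO, 18 in DMSO over day 0 and 19 in RTX over day 0. The 35 are not separate groups, since genes sharing both arms, as in mir-9, mir-105, mir-133a and mir-329, were counted for each arm. Over all 252 genes, 120 medians lay above 0 and 132 below in RTX over DMSO. No share for sets of unrelated genes was computed, so these counts are a description only.

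Many of these hairpins lie inside protein-coding genes, and guides to the hairpin were set beside guides to the coding sequence of the host. RefSeq placed 121 of the 262 members inside a protein-coding gene, and 87 such hosts, holding 108 members, had guides of their own. In DMSO over day 0, 8 of the 87 hosts had a median of -1 or less, where the share over all genes was 3.42%. Of the 11 members within these 8 hosts 0 did, as did 0 of all 252 members with at least 2 guides. IARS2, the mitochondrial isoleucine tRNA ligase, was at -1.94, with mir-194-1 at -0.02 and mir-215 at 0.02 on its opposite strand. VMP1 was at -1.92, with mir-21 at 0.12. CTDSPL, a phosphatase, was at -1.45 with guides from -3.31 to 0.63, and mir-26a-1 was at 0.12. NFYC, a subunit of the CCAAT-binding factor, was at -1.30, with mir-30c-1 at -0.11 and mir-30e at -0.10. HNRNPK, an RNA-binding protein, was at -1.25, with mir-7-1 at 0.28. HUWE1, a ubiquitin ligase, was at -1.19, with let-7f-2 at -0.14 and mir-98 at 0.29. TNFRSF13C, a receptor of B cells, at -1.10 and DNM2, a dynamin, at -1.04 held mir-378i at -0.37 and mir-199a-1 at -0.31. The guides of TNFRSF13C ran from -2.61 to 1.17. Apart from TNFRSF13C and CTDSPL, all guides of the hosts named here lay below 0.

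Proteins of the general microRNA pathway were set beside them, as genes chosen after the values were seen. DROSHA had a median of 0.63 for RTX over DMSO, -1.32 in DMSO over day 0 and -0.42 in RTX over day 0 over 3 guides. XPO5, which exports the hairpins, had 0.30 in RTX over DMSO, -1.07 in DMSO over day 0 and -0.76 in RTX over day 0. DICER1 had -0.15 in RTX over DMSO, -0.67 in DMSO over day 0 and -0.81 in RTX over day 0. DGCR8 had -0.30 in RTX over DMSO, 0.04 in DMSO over day 0 and -0.60 in RTX over day 0. In DMSO over day 0 the guides ran from -1.46 to -0.26 for DROSHA and from -1.46 to -0.80 for XPO5. They ran from -1.01 to 0.23 for DICER1 and from -2.17 to 0.08 for DGCR8. In RTX over DMSO the DROSHA guides ran from 0.56 to 0.89 and the XPO5 guides from -0.26 to 1.74. TARBP2, the partner of DICER1, had 0.13 in DMSO over day 0, and the Argonaute genes had -0.39 (AGO1), 0.39 (AGO2), -0.09 (AGO3) and 0.16 (AGO4). In DMSO over day 0, DROSHA and XPO5 were each lower than every one of the 252 member genes, of which the lowest was at -0.98. The values are not fully alike, since DROSHA and XPO5 had 3 guides each and 228 of the 252 had 4. Among higher-numbered microRNAs with 4 guides the lowest was at -2.07, below both DROSHA and XPO5.

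An exact test on the recovered reads, edgeR's exactTest with 1 dispersion taken from the non-targeting guides, compares single libraries and not conditions. At an adjusted p under 0.05 it called 6 member guides higher and 3 lower in RTX over DMSO, where the shares over all guides were 0.926% and 0.391%. It called 1 higher and 11 lower in DMSO over day 0 (0.129% and 2.07% of all guides), and 1 higher and 5 lower in RTX over day 0 (0.195% and 0.664%). These counts are out of 989 member guides. Of the 991 non-targeting guides, 5 were called higher and 3 lower in RTX over DMSO. In DMSO over day 0, 3 of them were called higher and 3 lower, and in RTX over day 0, 6 and 3. Guides without a target were thus called too, and a call alone does not mark an effect of the microRNA. The guides called higher in RTX over DMSO were both thin guides of mir-186 and 1 guide each of mir-125b-2, mir-301a, mir-346 and mir-92a-1. Those called lower belonged to mir-184, mir-30d and mir-7-3. Only mir-186 had more than 1 guide called in RTX over DMSO, and among the 11 lower in DMSO over day 0 only mir-320e had. The mir-346 guide had 100 reads in RTX, 19 in DMSO and 32 at day 0, the mir-184 guide had 3 in RTX, 46 in DMSO and 21 at day 0, and the mir-7-3 guide had 0 in RTX, 19 in DMSO and 15 at day 0.

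At an FDR under 0.05 the authors' deposited table for RTX against DMSO held 119 member guides as higher (12.0%) and 38 as lower (3.84%), beside 13.9% and 4.3% of all guides and 8.27% and 5.35% of the non-targeting guides. The authors' deposited table for DMSO against day 0 held 88 as higher (8.90%) and 43 as lower (4.35%), beside 9.71% and 5.87% of all guides and 17.6% and 0.908% of the non-targeting guides. The authors' deposited table for RTX against day 0 held 115 as higher (11.6%) and 29 as lower (2.93%), beside 10.9% and 4.06% of all guides and 13.4% and 1.51% of the non-targeting guides. None of these member shares was above that of all guides by more than 1 percentage point.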

How the data were processed

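Genomic DNA of NUGC3 cells was amplified in 2 PCR steps and sequenced, per the labels' protocols. The authors deposited 3 guide tables, 1 per pair of libraries, made with MAGeCK 0.5.7 with hg19 as the build, per the submitters' processing notes. The matching of reads was not given in the sources used here. The deposited value of a guide in a library is a signal, reads multiplied by 1 size factor per library, per the file headers and the values, and beside it stand the authors' p-values and FDR (q-values). Whole reads were recovered from the signal, and within a tolerance of 0.1 at least 99.9984% of values came out whole.

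From the deposited signal, log2 ratios were computed after adding a pseudocount of 5, over the 62610 of 62916 guides that reached 10 normalized reads at day 0. A guide was counted as called at a log2 ratio of 1 or more or -1 or less. A gene's value is the median of its guides, over 20150 genes with at least 2 guides. For gene values 23 date-like names, which spreadsheets make of some symbols, were left out. No test against replicates was made, since each condition was 1 library. Python 3.11.15 and R 4.3.3 with edgeR 4.0.16 were used, and the ratio and exact-test steps were tested on simulated data. For simulated log2 ratios of -2 and 2 the exact test recovered 20% and 24% in RTX over DMSO. It recovered 38% and 48% in DMSO over day 0, and 30% and 38% in RTX over day 0. At log2 ratios of -4 and 4 it recovered at least 98%.

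The members and lists were chosen with earlier results of these data known. Named genes were, per comparison, the 8 highest and 8 lowest medians with guides of 1 sign, the 5 highest and 5 lowest guides, the set families (let-7, mir-17, mir-21, mir-200 and others), members on chromosome 21 and members in hosts at -1 or less, and not all are printed. Guides called by the exact test, guides low in both day 14 libraries, mir-186, mir-30a, mir-320c-1 and mir-320e were named after their values were seen. Chromosomes, hosts and sequences come from RefSeq tables of GRCh38.p14, and no coordinates are given because the authors' build differs. As alternatives, other pseudocounts (1 and 20), a filter of 50 normalized reads or none, equal totals or a scale with the non-targeting guides at 0, the mean for the median, the exact test and the authors' FDR were run, and, chosen after seeing the data, leaving out chromosome 21.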

Additional observations from a re-analysis of the deposited data

How the results depend on the processing

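No paired analysis was possible because each condition was 1 library. Setting the non-targeting guides to 0 moved the median over member guides to 0.075 in RTX over DMSO, -0.17 in DMSO over day 0 and -0.11 in RTX over day 0, and turned 25 of the family medians; equal library totals moved it to -0.049, -0.00046 and -0.062 in the same order and turned 5. In RTX over DMSO the exact test called 6 member guides higher and 3 lower, the authors' deposited table had 119 higher and 38 lower, and with the mean in place of the median 1 gene was at -1 or less. In DMSO over day 0, guides higher numbered 13 with a pseudocount of 20, 16 with a filter of 50 normalized reads, 8 with the non-targeting guides at 0, 1 by the exact test and 88 in the authors' deposited table, and guides lower numbered 11 by the exact test; genes at -1 or less numbered 1 with a pseudocount of 1, 1 with the filter of 50, 3 with the non-targeting guides at 0 and 1 with equal totals. In RTX over day 0, guides lower numbered 25 with a pseudocount of 20 and 5 by the exact test, guides higher 1 by the exact test and 115 in the authors' deposited table, and genes at -1 or less 0 with a pseudocount of 20, 0 with the filter of 50, 2 with the non-targeting guides at 0 and 3 with the mean. With the filter of 50, which left 2 guides each, mir-186 turned to -0.31 in RTX over DMSO and mir-302b to 0.0167 in RTX over day 0. The gene value of mir-205 ran from 1.04 to 1.19 in RTX over DMSO and from 1.13 to 1.28 in RTX over day 0 over the alternatives run. Without the members on chromosome 21, 66 guides and 2 genes were at 1 or more in RTX over DMSO. Beyond these scalings the cause of each change was not tested, and guides with few reads limit what single ratios can show.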
